A study of Mus musculus with 12 samples.

Results

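The mouse miRNAs mmu-miR-5099, mmu-miR-5121, mmu-miR-6538 and mmu-miR-6237, written below without the species prefix, were followed in small RNA libraries of exosomes, vesicles shed by cells, from primary hepatocytes at passage 0. They are 4 of the 1965 mature mouse miRNA names of the deposited table, and they were selected on their CPM after 4 weeks of a high-fat diet (HFD), which is high, and on being listed with 1 arm only. Their level at 4 weeks is therefore given as a description, with no test. The test is kept for 16 weeks of HFD against lean. Ranks by mean CPM over all 12 samples include the 4-week values, so they are a description too. The names were chosen with earlier results of these data known, so any overlap of their loci with another RNA is also only described. The groups were lean controls (labelled NCD), 4 weeks of HFD and 16 weeks of HFD, with 4 libraries each. The culture medium of all 12 samples, Williams' E, contained fetal bovine serum. Strain, genotype, sex, age and whether animals were pooled are not given in the sources used here, so p-values measure the spread between these libraries, which may be technical.

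A microRNA is normally cut from a hairpin transcript by Drosha and Dicer, which leaves a duplex with an RNA from each arm. One strand is loaded into an Argonaute protein and pairs with messenger RNAs mainly through its seed, bases 2 to 8. Names listed with a single arm often come from later sequencing surveys, and short fragments of other abundant RNAs such as small nucleolar RNAs (snoRNAs) can carry a miRNA name when their locus was annotated as a hairpin. Many box C/D snoRNAs guide the methylation of ribosomal RNA, and many sit in introns of other genes, ribosomal protein genes among them.

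The sequences of the annotated loci are shown first, since the loci set these names apart from each other. All come from RefSeq on GRCm38.p6, the assembly of which mm10 is a name, except Snord33, which comes from GENCODE M21. RefSeq's table held a hairpin for all 4 and a mature sequence for 3, and that of miR-5099 is not shown. In the mature sequences capitals mark the seed, in the hairpins they mark the mature miRNA, and in Snord33, written as DNA, they mark the bases of miR-5121.
miR-5121 mature, chr7:45126925-45126945 (minus strand): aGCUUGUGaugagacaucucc
miR-6538 mature, chr12:26414970-26414988 (minus strand): cGCGGGCUccggggcggcg
miR-6237 mature, chr9:9894484-9894506 (plus strand): uUAAGGAUugggucuuggaauuc
miR-5099 hairpin, chr12:36816205-36816278 (plus strand): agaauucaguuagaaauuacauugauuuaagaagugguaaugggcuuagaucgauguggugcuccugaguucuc
miR-5121 hairpin, chr7:45126918-45126991 (minus strand): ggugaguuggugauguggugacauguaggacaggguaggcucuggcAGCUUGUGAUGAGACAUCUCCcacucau
miR-6538 hairpin, chr12:26414901-26415010 (minus strand): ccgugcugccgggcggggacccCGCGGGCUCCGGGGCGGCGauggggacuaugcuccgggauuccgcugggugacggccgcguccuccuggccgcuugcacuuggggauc
miR-6237 hairpin, chr9:9894431-9894521 (plus strand): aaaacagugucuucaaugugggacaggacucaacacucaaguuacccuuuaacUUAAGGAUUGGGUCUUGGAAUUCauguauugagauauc
Snord33, chr7:45126864-45126947 (minus strand): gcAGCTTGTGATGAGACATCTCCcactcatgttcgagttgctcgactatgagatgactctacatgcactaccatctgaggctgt

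All 21 bases of miR-5121 lie inside Snord33, an 84-base box C/D snoRNA, where they are bases 3 to 23. The hairpin annotated for miR-5121 shares its last 30 bases with Snord33 and starts 44 bases before it, within Rpl13a, which encodes a protein of the large ribosomal subunit. It touches an exon in 14 annotated transcripts of Rpl13a and in 1 of the gene model Gm45713. The snoRNAs of Rpl13a are known, from a genetic screen in hamster cells, to be needed for cell death under a load of saturated fatty acid. The letters UGAUGA, the core of the C box that defines this snoRNA class, are bases 7 to 12 of miR-5121 and bases 9 to 14 of Snord33, where the last CTGA, the letters of the D box, is bases 75 to 78. Among 1679 mature miRNAs of RefSeq, 12 (0.715%) hold UGAUGA on the given strand and 6 (0.357%) on the other. Neither miR-6538 nor miR-6237 holds UGAUGA. Of 98 Snord transcripts, 70 (71.4%) hold TGATGA in their first 25 bases. That window differs from a whole mature sequence, so the shares are not compared. As miR-5121 lies wholly inside Snord33, its UGAUGA follows from that overlap, and nothing further is read from it.

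**Figure D1:**
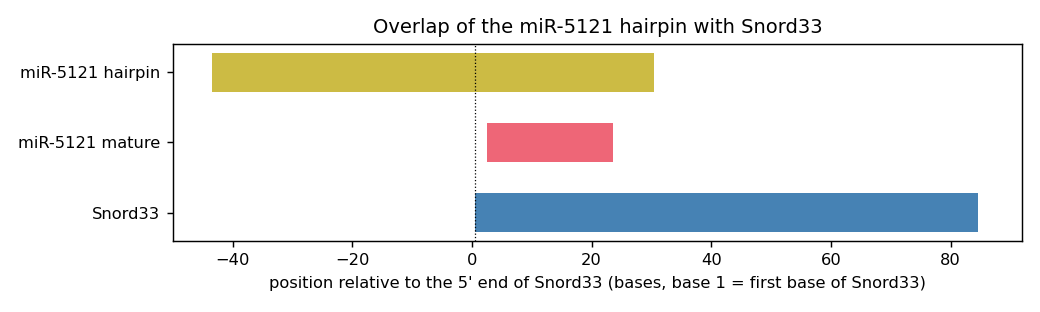
Position of the miR-5121 hairpin, the mature miR-5121 and Snord33 along the minus strand, in bases from the 5′ end of Snord33 (base 1, dotted line). The mature miRNA covers bases 3 to 23 of Snord33, and the hairpin starts 44 bases before the snoRNA.

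The other loci overlap no annotated small RNA of another class on their strand. The miR-6538 hairpin lies in intron 1 of Rnf144a, which encodes an E3 ubiquitin ligase, 244 bases from the start of the gene and on its strand. The miR-6237 hairpin lies in an intron of Cntn5, which encodes a neuronal cell adhesion molecule, on the opposite strand. The miR-5099 hairpin lies between genes, 126702 bases after the end of Ispd and 292262 bases before the start of Meox2, the nearest protein-coding genes on either side. A search of the GENCODE transcripts for the exact mature sequences found miR-6538 and miR-6237 only in their own hairpins. For miR-5121 it found the hairpin, Snord33 and 2 transcripts of Rpl13a that retain the intron. miR-5099, for which RefSeq's table held no mature sequence, was not searched for. Nuclear transfer RNAs and the long ribosomal RNA precursor were not part of the search, so a match to those RNAs was not looked for.

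The mature sequences have little in common. No other mature miRNA in the RefSeq table shares a seed with miR-5121, miR-6538 or miR-6237, and these 3 seeds differ from each other. The G and C content of miR-6538 is 94.7%, above that of 99.8% of all mature sequences, while that of miR-6237 is 39.1% and that of miR-5121 47.6%. Folded with RNAfold, the hairpins of miR-5099, miR-5121 and miR-6237 had minimum free energies per base of -0.36, -0.34 and -0.31 kcal/mol, all weaker than the median of -0.41 over 1005 mouse hairpins. The miR-6538 hairpin, at -0.47 kcal/mol per base, was more stable than 76.5% of them. The mature miR-5121 and miR-6237 come from the 3′ arm of their hairpins and miR-6538 from the 5′ arm.

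The values are CPM, in which the miRNA reads of a library are scaled to a common total. The depth, recovered from the CPM of 1 read, differed between the groups. Lean libraries held 13748 to 30430 reads of listed miRNAs, those of the 4-week group only 2352 to 4477, and those of the 16-week group 20538 to 37596. One read is therefore worth up to 72.7 CPM in a lean library, 425 CPM in a 4-week library and 48.7 CPM in a 16-week library. The limit that a count of 0 allows, 3 reads over a group, equals 36.2 CPM for lean, 213 CPM for the 4-week group and 27.1 CPM for the 16-week group. The most abundant miRNA, miR-101b-3p, held 61.9% ± 6.37 of the CPM in lean, a smaller 25.2% ± 9.01 after 4 weeks, and 60.4% ± 6.77 after 16 weeks (SD, n = 4 per group), which leaves a larger share of the total to all other miRNAs after 4 weeks. In such bulk samples, fewer vesicles and less of a miRNA per vesicle cannot be told apart. Of the labelled cell type's markers, miR-192-5p had 149 reads over the 12 libraries, but miR-122-5p had 3, miR-194-5p 1 and miR-148a-3p 0. All 4 leukocyte, all 3 muscle and all 5 stellate cell and fibroblast markers were at 0, and the red blood cell and endothelial markers had 3 reads of miR-451a and 1 of miR-126a-3p. The summed hepatocyte markers ranged over 145 to 409 CPM in lean libraries, 425 to 899.55 CPM in the 4-week group and 536 to 1777 CPM in the 16-week group, and their part in the results below was not tested.

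miR-5099 was the second most abundant miRNA of the table, with a mean of 75839 CPM over the 12 libraries. It stood at 45534, 31909, 16923 and 55552 CPM in the lean libraries, at 152347, 246599, 164843 and 108546 CPM at 4 weeks and at 18938, 22653, 25283 and 20937 CPM at 16 weeks. All 4 libraries of the 4-week group were above every library of the other groups, and the 16-week values lay within the lean range. The 4-week mean of 168083 ± 57641 CPM was 4.48-fold the lean mean of 37479 ± 16784 CPM (SD, n = 4 each), a difference of 2.24 in mean log2(CPM + 1). The 16-week group was the least variable, at 21953 ± 2690 CPM, 7.66-fold below the 4-week mean. In 4-week replicate 2 miR-5099 exceeded miR-101b-3p and was the most abundant miRNA of the library, while in the 16-week libraries it held ranks 5 to 8.

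miR-5121, the name that shares its sequence with Snord33, held rank 3 by its mean of 55541 CPM over the 12 libraries, a rank that rests on the 4-week group. Within single libraries it held ranks 3 to 13 in lean, 1 to 5 after 4 weeks and 2 to 9 after 16 weeks. It stood at 7347, 13506, 8399 and 49076 CPM in the lean libraries, at 217492, 151361, 65446 and 39280.4 CPM at 4 weeks and at 16385, 14008, 44364 and 39829 CPM at 16 weeks. Lean replicate 4 stood far above the other lean libraries and above 4-week replicate 4, so the groups overlap, and 3 of 4 libraries at 4 weeks were above every lean library. The 4-week mean of 118395 ± 81588 CPM was 6.05-fold the lean mean of 19582 ± 19846 CPM, and the 16-week mean was 28646 ± 15670 CPM (SD, n = 4 each). Without lean replicate 4 the fold of 4 weeks over lean was 12.1, and without miR-101b-3p in the total it was 3.18. At 16 weeks the coefficient of variation was 0.547 for miR-5121 and 0.123 for miR-5099. In lean it was 1.01 for miR-5121 and 0.448 for miR-5099, but 0.338 and 0.455 without replicate 4, so that library decides the order in lean.

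miR-6538, the name with the highest G and C content of the 4, was far rarer and held rank 50 by mean (1179.7 CPM). It stood at 1018, 854, 1045 and 68.2 CPM in the lean libraries, at 3334, 3401, 1564 and 2399 CPM at 4 weeks and at 0, 205, 171 and 97.4 CPM at 16 weeks. The 4-week libraries were above all others, and lean replicate 4, with 1 read, was the only lean library within the 16-week range. These values rest on 66 reads in the lean group, 36 at 4 weeks and 12 at 16 weeks. The 4-week mean of 2674 ± 871 CPM was 3.58-fold the lean mean of 746 ± 459.9 CPM (SD, n = 4 each), and the 16-week mean of 118 ± 90.8 CPM was 22.6-fold below the 4-week mean.

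miR-6237 was close to the detection limit, with 8 reads in the 12 libraries. It was at 0 in all 4 lean libraries, at 513, 1276, 0 and 299.85 CPM at 4 weeks and at 0, 0, 85.6 and 0 CPM at 16 weeks. The 4-week values are 2, 3, 0 and 1 reads and the 16-week value is 2 reads. The 4-week mean of 522 ± 545 CPM (SD, n = 4) was, with that mean taken as exact, at least 14.4-fold higher than lean, where the limit of 36.2 CPM was used in place of 0. Without 4-week replicate 2, which holds 3 of the 6 reads, the mean was 271 CPM and the bound 7.48-fold. Pooled over the group, the 95% Poisson interval at 4 weeks was 157 to 929 CPM, covering counting error only. The 16-week mean of 21.4 CPM lay under the limit for lean, so no fold is given for 16 weeks against lean.

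**Figure D2:**
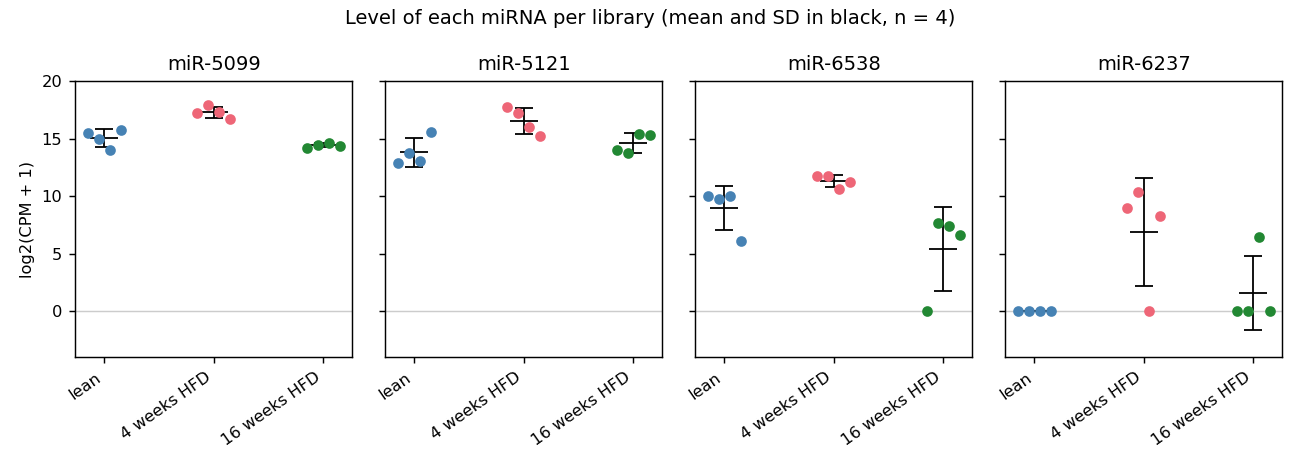
Level of miR-5099, miR-5121, miR-6538 and miR-6237 as log2(CPM + 1) in each of the 12 libraries, by group, with the mean and SD of 4 libraries in black. The 4-week libraries of miR-5099 and miR-6538 stand above all others, miR-5121 overlaps between groups, and miR-6237 is at 0 in 8 of 12 libraries.

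Among the members, miR-5099 and miR-6538 had all 4-week libraries above all lean ones. Of the 267 miRNAs with at least 10 CPM in at least 4 libraries, 26 (9.74%) did so. Since the members were chosen for this level, nothing is read from their count. One read is worth at least 26.6 CPM in any library, so the filter asks only for 1 read in each of 4 libraries. Likewise, miR-5099 and miR-6538 had all 16-week libraries below all 4-week ones, as had 16 of the 267 (5.99%). These comparisons share the 4-week libraries.

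Together the 4 names took 5.78% ± 3.33 of the CPM in lean, as much as 29.0% ± 11.9 in the 4-week group, and 5.07% ± 1.73 in the 16-week group (SD, n = 4 per group). The range was 2.64% to 10.5% for lean, 15.1% to 40.3% for 4 weeks of HFD and 3.53% to 6.99% for 16 weeks, and nearly all of it came from miR-5099 and miR-5121. The lean libraries stood in the opposite order by the share of miR-101b-3p, 54.8%, 60.5%, 62.3% and 70.2%, and by that of the 4 names, 10.5%, 5.39%, 4.63% and 2.64%. In the 4-week group, 15.9%, 21.1%, 27.2% and 36.8% of miR-101b-3p stood beside 37.4%, 40.3%, 15.1% and 23.19% of the 4 names. The part of miR-101b-3p in the shares was not tested. As a share of the reads other than miR-101b-3p, the 4 names took 14.5% ± 6.12 in lean, 38.2% ± 13.1 in the 4-week group and 12.6% ± 2.71 in the 16-week group. On that scale miR-5099 stood at 149033 to 312500 CPM in the 4-week group and at 56770.4 to 122778 CPM in lean, which still did not overlap, and the ratio of the means was 2.38 in place of 4.48. For miR-6538 the ratio was 1.65 and the 4-week and lean groups overlapped, with 2475 to 4310.3 CPM in the 4-week group and 151 to 3504 CPM in lean.

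**Figure D3:**
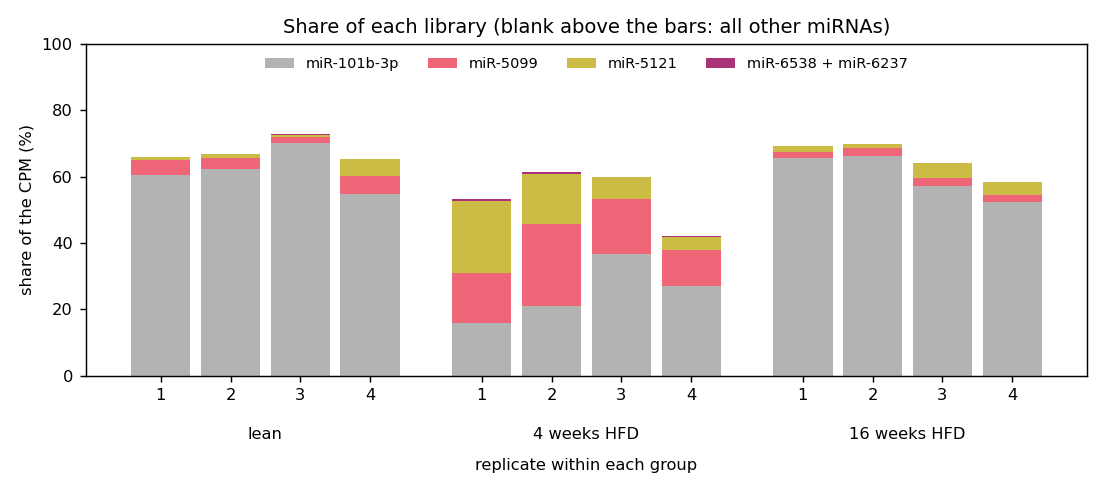
Share of the CPM in percent held by miR-101b-3p, miR-5099, miR-5121 and the sum of miR-6538 and miR-6237 in each library, stacked from 0, with the rest of the library left blank. The 4 names fill 15.1% to 40.3% of the 4-week libraries, and at most 10.5% of any other library.

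The recovered reads show the same values without the scaling. miR-5099 had 405 to 971 reads per library in lean, 362 to 738 at 4 weeks and 430 to 712 at 16 weeks, a range of 362 to 971 over libraries whose depth ran from 2352 to 37596 reads. The 4-week group held 0.807 times the lean group's reads of miR-5099, 1.14 times those of miR-5121 and 0.545 times those of miR-6538, while its depth was 0.170 times that of lean and its miR-101b-3p reads were 0.0704 times. Of 126 tested miRNAs with at least 10 lean reads, 15 had a ratio at or above that of miR-5099, and the median ratio was 0.136. The 15 include miR-5099 itself and miR-5121. As the members were chosen for their 4-week level, nothing is read from this count. The reads of miR-5121 per library reached 720 in lean, 848 after 4 weeks and 1037 after 16 weeks. The high CPM of both at 4 weeks stands beside a low depth of these libraries, whose part in it was not tested.

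**Figure D4:**
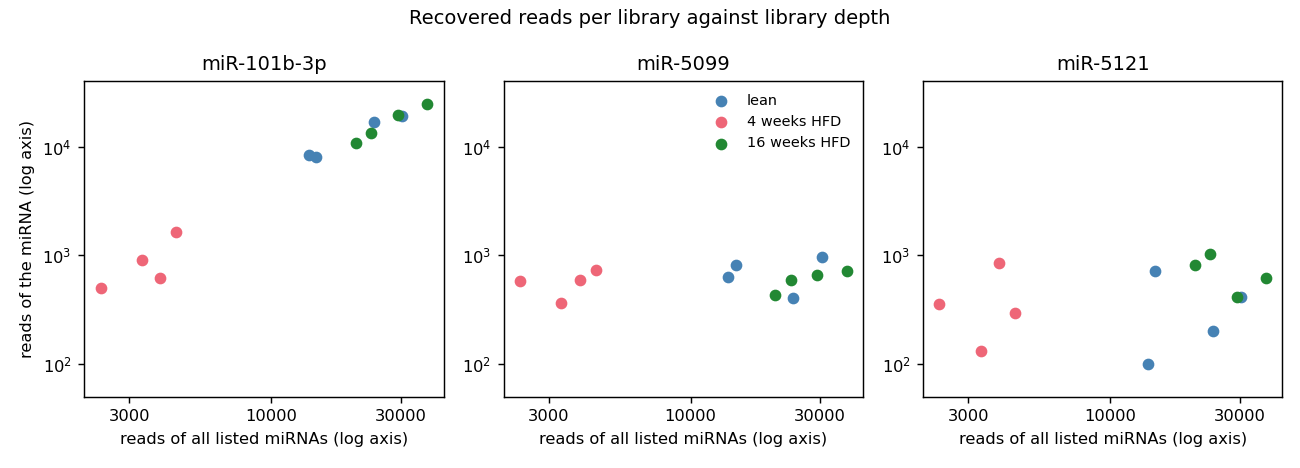
Reads of miR-101b-3p, miR-5099 and miR-5121 in each library against the reads of all listed miRNAs in that library, both on log axes. The reads of miR-101b-3p follow depth, from 496 at 4 weeks to 24700 at 16 weeks, whereas those of miR-5099 stay between 362 and 971. miR-101b-3p makes up 52.4% to 70.2% of the horizontal axis total in lean and 16-week libraries, so it follows that total partly by construction.

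The comparison of 16 weeks of HFD with lean was not used to choose the members, and the depths of these groups overlap. It was tested with limma on log2(CPM + 1) over 267 miRNAs, all 12 libraries in 1 fit, with Benjamini-Hochberg adjusted p-values. None of the 4 names was called at an adjusted p under 0.05 in this fit, where 7 of 267 miRNAs (2.62%) were, with 3 of 267 (1.12%) higher and 4 (1.5%) lower, and 1 of the 4, miR-6538, had an unadjusted p under 0.05, as had 50 of 267 (18.7%). In the count test on the recovered reads (edgeR's quasi-likelihood test), 1 of the 3 members tested was called, against 25 of 72 miRNAs (34.7%). Without edgeR's filter on low counts the same member alone of the 4 was called, against 33 of 611 miRNAs (5.4%), of which 18 (2.95%) were lower. DESeq2 called 2 of the 4, both lower, against 31 of 203 miRNAs (15.3%), of which 26 (12.8%) were lower. None of the 4 names had groups that did not overlap, against 41 of 267 miRNAs (15.4%). Among them miR-6237 had 0 reads in lean and 2 reads in 1 of the 16-week libraries. Nothing is read from its overlap or its lack of a call.

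miR-5099 averaged 21953 ± 2690 CPM at 16 weeks and 37479 ± 16784 CPM in lean (SD, n = 4 each). The log2 fold change was -0.65 (SE 0.33, 95% interval -1.36 to 0.07, limma adjusted p = 0.330). The edgeR value was similar, -0.69 (adjusted p = 0.150), and DESeq2 on the same reads gave -1.09 and called it lower (adjusted p = 0.036).

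miR-5121 averaged 28646 ± 15670 CPM at 16 weeks and 19582 ± 19846 CPM in lean, with a log2 fold change of 0.83 (SE 0.64, 95% interval -0.55 to 2.21, limma adjusted p = 0.540). In lean replicate 4 it was higher than in any 16-week library. With all libraries the log2 fold change was 0.61 in edgeR (adjusted p = 0.437) and 0.23 in DESeq2 (adjusted p = 0.8995), neither of which called miR-5121. Without lean replicate 4 it was 1.42 (limma adjusted p = 0.163) and 1.59 in edgeR, which then called miR-5121 higher (adjusted p = 0.0118). That edgeR fit was added after the data were seen.

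miR-6538 averaged 118 ± 90.8 CPM at 16 weeks and 746 ± 459.9 CPM in lean, with a log2 fold change of -3.54 (SE 1.5, 95% interval -6.76 to -0.31, limma unadjusted p = 0.0341, adjusted p = 0.234). It fell in edgeR's count test, by 2.74 on the log2 scale (adjusted p = 0.00714; 12 of 72 miRNAs, 16.7%, were called lower), and in DESeq2 (-3.18, adjusted p = 0.00341). On leaving out each lean and 16-week library in turn the edgeR fold ranged from -3.16 to -2.33 and the call was kept each time (adjusted p = 0.00108 to 0.0385). The limma fold went to -1.72 without 16-week replicate 1, the library at 0, and to -4.49 without lean replicate 4, the library with 1 read (adjusted p = 0.357 and 0.101). Pooled over the group, miR-6538 stood at 108 CPM at 16 weeks (12 reads, 95% Poisson interval 56.0 to 189 CPM) and at 797 CPM in lean (66 reads, 617 to 1014 CPM).

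miR-6237 had 2 reads at 16 weeks, both in replicate 3, and 0 in lean. It passed the filter through 3 libraries of the 4-week group, for which it was chosen, and 1 of the 16-week group. Its log2 value of 1.61 (SE 2.19, limma adjusted p = 0.819) depends on the pseudocount, and nothing is read from it. A difference of this miRNA between 16 weeks and lean was not detectable at this depth.

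**Figure D5:**
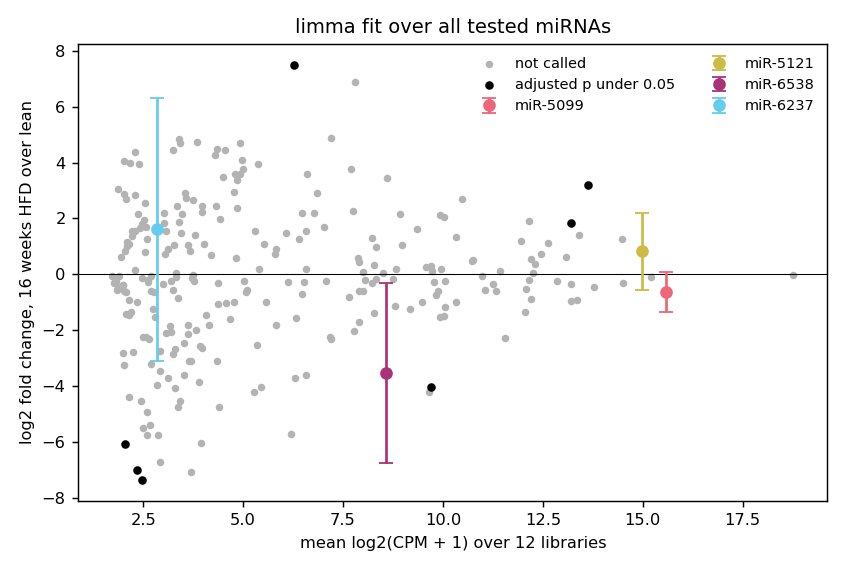
Log2 fold change of 16 weeks of HFD over lean against the mean log2(CPM + 1) of 12 libraries for the 267 tested miRNAs, with the 7 called ones in black and the 4 named miRNAs with their 95% intervals. The intervals of miR-5099, miR-5121 and miR-6237 cross 0, and that of miR-6538 runs from -6.76 to -0.31 before adjustment.

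The ratio of miR-5121 to miR-5099 within a library does not depend on scaling, and this was the only pair of members with reads in all 8 libraries compared. The ratio was 0.865, 0.618, 1.75 and 1.90 at 16 weeks and 0.161, 0.423, 0.496 and 0.883 in lean. Only 2 of the 4 libraries at 16 weeks were above all lean libraries. The mean log2 ratio was 0.21 ± 0.79 at 16 weeks and -1.27 ± 1.02 in lean (SD, n = 4 each), a difference of 1.48 that missed the threshold (exact permutation test, 2-sided, p = 0.0857, where 70 assignments allow 0.0286 at the least). At 4 weeks the ratio was 1.43, 0.614, 0.397 and 0.362, which overlaps both other groups.

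Likeness of pattern was measured as the root mean square difference of log2(CPM + 1) over the 12 libraries after each miRNA's own mean was subtracted, among 266 candidates. The profile closest to miR-5099 was that of miR-7242-3p (0.58), with means of 1544 CPM for lean, 7347 CPM for the 4-week group and 1096 CPM for the 16-week group, followed by miR-1843b-3p (0.81) and miR-217-5p (0.86). Those closest to miR-5121 were miR-362-5p (0.66), miR-217-5p (0.73) and miR-544-5p (0.76). The distance between miR-5099 and miR-5121 themselves was 1.00. The sparser names had no close match. The nearest to miR-6538 was miR-3075-5p (2.08), then miR-6931-5p (2.19) and miR-1843b-3p (2.23), and the nearest to miR-6237 was miR-6974-3p (2.17), which was at 0 in 3 of 4 lean libraries, then miR-200a-3p (2.65) and miR-3100-5p (2.80). Distances between the members other than the abundant pair ran from 2.57 to 3.79.

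The members were then set beside the other names listed without an arm. The table lists 319 such names, of which 80 had a read and 31 passed the filter. Without the 4 members, the other 315 took 0.572% ± 0.0898 of the CPM in lean, 1.36% ± 0.318 after 4 weeks of HFD and 0.459% ± 0.0844 after 16 weeks (SD, n = 4 per group). At 4 weeks, 11 of the 27 that passed were above lean in mean log2(CPM + 1), with a median difference of -1.08. Over all miRNAs tested other than the members it was 88 of 263, with a median of -1.36. The 4-week libraries held 124 to 176 miRNAs above 0 and the lean ones 230 to 296. A miRNA with few lean reads can be at 0 at 4 weeks, where 1 read is worth 223 to 425 CPM. The part of depth in these medians and counts was not tested. At 16 weeks none of the 31 was called in limma, against 7 of 267, and the median log2 fold change was 0.34 against -0.18. The most abundant after miR-5099 and miR-5121 were miR-378d, with means of 1794 CPM for lean, 1648 CPM for the 4-week group and 2362 CPM for the 16-week group, and miR-8114, whose hairpin overlaps an exon of the glutamine synthetase gene Glul, at 1668, 2199 and 466 CPM in the same order. miR-1927 stood at 79.8 ± 88.3 CPM in lean, 3609.5 ± 3209 CPM in the 4-week group and 155 ± 74.0 CPM in the 16-week group.

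A list by position held the miRNAs whose hairpin overlaps, on its strand, an annotated RNA of another class or an exon of another gene. A hairpin overlapped a small RNA of another class for 25 listed names and an exon of a longer gene for 409, and 420 had either. Of these, 68 passed the filter, and at 16 weeks against lean limma called 1 higher, miR-24-2-5p (log2 fold change 1.85, adjusted p = 0.0362, 13992 ± 2557 CPM after 16 weeks and 4502 ± 3068 CPM in lean), and 0 lower (median log2 fold change -0.52, against -0.18 over all tested). By mean CPM over the 12 libraries, in which the 4-week group weighs most for miR-5121, the list began with miR-5121, then miR-1843a-5p (Scarna3b, a guide RNA of Cajal bodies), miR-3068-5p (its own locus, which GENCODE lists as a snoRNA), miR-24-2-5p, miR-92a-3p (the host transcript Mir17hg) and miR-1843b-3p (Scarna3a). In lean, miR-1843a-5p and miR-3068-5p stood above miR-5121, and at 16 weeks miR-1843a-5p did. They did not move alike at 4 weeks. miR-1843b-3p averaged 26007 ± 6065 CPM at 4 weeks and 2933 ± 1252 CPM in lean, whereas miR-1843a-5p averaged 12507 ± 5929 CPM at 4 weeks and 37556 ± 10393 CPM in lean, and miR-3068-5p 7515 ± 1299.8 CPM at 4 weeks and 23477 ± 7398 CPM in lean (SD, n = 4 each). Without miR-5121, the 24 other names that overlap a small RNA took 8.34% ± 1.57 of the CPM in lean. They took 6.33% ± 1.55 after 4 weeks and 6.06% ± 0.641 after 16 weeks. Both arms of miR-3068, whose only small RNA overlap is their own locus, are counted among the 25 names and in these shares. Nuclear transfer RNAs and the long ribosomal RNA precursor were not part of this comparison.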

How the data were processed

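The authors deposited 1 table of CPM per miRNA and library, per its name. Per the submitters' processing notes, cutadapt 1.13, edgeR 3.16.5 and mm10 were used; how reads were aligned, against which miRNA annotation, and what became of multi-mapped reads is not given in the sources used here. Dividing each column by the CPM of 1 read gave whole reads for 2617 of 2664 values above 0 (98.2%, relative tolerance 1e-06), all member values among them. In 7 miRNAs, no member among them, the lean and 16-week values are not whole reads and may have been exchanged between columns of the same number. The limma fit kept them as deposited, and the count tests left them out.

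limma 3.58.1 (R 4.3.3), with a mean-variance trend and a pseudocount of 1 CPM, tested every miRNA that reached 10 CPM in 4 libraries or more. edgeR 4.0.16 and DESeq2 1.42.0 were run on the recovered reads and hairpins were folded with RNAfold 2.7.2. Poisson intervals and the limits from a count of 0 cover counting error only, while limma's intervals come from the spread between libraries.

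The members, lists and tests were chosen with earlier results of these data known. Named miRNAs were the members, the 3 of nearest pattern to each, up to 6 per list by mean CPM, the markers, miR-101b-3p, and miR-24-2-5p as the 1 call of its list. Of the 1965 names, 1674 matched a mature sequence and 1761 a hairpin of RefSeq.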

Additional observations from a re-analysis of the deposited data

Results flagged for a closer look

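The miR-5121 level of lean replicate 4, 49076 CPM, lay far from the other lean libraries (7347 to 13506 CPM), with a gap of 0.852 of the group's range. The miR-6237 level of 16-week replicate 3, 85.6 CPM or 2 reads, was the only value above 0 in its group. Its gap is 1.0 of the range by construction, as for any single value above 0, so nothing is read from it. The gap of miR-5121 exceeds Dixon's critical value for a group of 4, which chance alone exceeds in about 1 in 20 groups. The gap was taken for each member, for the ratio of miR-5121 to miR-5099 and for the summed share, in every group. With so many groups looked at, an excess in some group is likelier than 1 in 20. The same lean replicate 4 had the lowest lean level of miR-6538, 68.2 CPM, where the gap was under the critical value. Both gaps were taken on CPM, and none was taken on the log2(CPM + 1) scale of the fits. On that scale replicate 4 stood at 6.11 for miR-6538, against 9.74 to 10.03 in the other lean libraries. For miR-5121 it stood at 15.58, against 12.84 to 13.72. The reading of replicate 4 by its gap therefore holds for CPM only.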

How the results depend on the processing

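None of the member folds, shares and ratios changed sign under the settings run. At 16 weeks against lean, edgeR called miR-6538 lower where limma did not (-2.74 on the log2 scale, -2.51 with no filter, -3.18 in DESeq2, and, added after the data were seen, -2.62, -2.83, -2.40 and -2.92 without lean replicates 1 to 4 and -2.33, -3.16, -2.92 and -2.63 without 16-week replicates 1 to 4), DESeq2 called miR-5099 lower (-1.09), and edgeR called miR-5121 higher (1.59) without lean replicate 4. Without any other single lean or 16-week library, edgeR made no call for miR-5121. The limma folds without each library in turn were -0.99 to -0.41 for miR-5099 and 0.51 to 1.42 for miR-5121. They were -4.49 to -1.72 for miR-6538 and 1.61 to 2.15 for miR-6237. The limma count of 3 miRNAs higher became 6 with log2(CPM + 10) or TMM, 8 with quantile normalization or only the 2 groups, 13 in edgeR, 15 in edgeR with no filter and 5 in DESeq2, and ran from 2 to 8 without each library in turn (8 without lean replicate 4). The count of 4 lower became 8 with log2(CPM + 10), 7 with TMM, 12 with quantile normalization, 11 with no variance trend, 13 with only the 2 groups, 12 in edgeR, 18 in edgeR with no filter and 26 in DESeq2, and ran from 1 to 8 (1 without lean replicate 1, 2 or 3, and 8 without 16-week replicate 4). With the values of the 7 doubtful miRNAs exchanged back, 2 were called higher and 5 lower. The cause was not tested.

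Scaling moved the 4-week values. For miR-5099 the log2 difference of 4 weeks over lean was 1.25 without miR-101b-3p, 1.56 with TMM and 1.05 with quantile normalization, in place of 2.24, and that of 16 over 4 weeks was -1.96, -2.01 and -2.25 in the same order, in place of -2.88. For miR-5121 they were 1.77, 2.07 and 2.17 in place of 2.75, and -1.0, -1.05 and -1.58 in place of -1.93. For miR-6538 the difference of 4 weeks over lean was 1.37, 1.67 and 2.50 in place of 2.35. For miR-6237 it was 4.42 with log2(CPM + 10) in place of 6.89, both set by the pseudocount. The folds of group means and the variation without single libraries were also added after the data were seen. Without miR-101b-3p the summed share was 14.5% in lean and 12.6% after 16 weeks. The median log2 fold change of all tested miRNAs at 16 weeks against lean changed sign, from -0.18 to 0.08 with quantile normalization.

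Replicates share numbers, but same-numbered lean and 16-week libraries did not deviate together (correlations 0.0232 to 0.0645). With a replicate block the calls numbered 3 higher and 4 lower, and miR-6538 stood at -3.54 (limma adjusted p = 0.247). The log2 ratio of miR-5121 to miR-5099 differed by 1.02 to 1.84 without each library in turn, and its exact sign-flip p over 4 pairs was 0.125, the smallest possible. miR-6237 could not be tested with a filter of 100 CPM, in the fit of 2 groups, in edgeR with its filter and without some libraries. The 2352 to 4477 reads of the 4-week libraries limit miR-6538 and miR-6237 most.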
